A study of Mus musculus with 10 samples.

Results

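Lineage transcription factors of myeloid maturation were compared between MLL-AF9 leukaemia cells and non-leukaemic myeloid cells, both from the bone marrow of leukaemic mice. The rule named 10 genes, Cebpa, Cebpb, Cebpd, Cebpe, Spi1, Gfi1, Id2, Runx1, Klf4 and Myb. Rows were found for 9 of them among the 10141 genes of the deposited table. Runx1 had no row and was not analysed here. All 9 passed the filter on low values, which kept 8079 genes. The members were chosen by name and not from measured values, although earlier results of these data were known when they were chosen.

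Leukaemia libraries came from GFP+ cells, whose genotype is given as MLL-AF9/GFP. Myeloid libraries came from GFP-CD11b+ cells of the bone marrow micro-environment. All recipients were CD45.1 mice that had been injected with MLL-AF9/GFP cells through the tail vein, and marrow was taken once GFP+ cells reached 2% of peripheral blood. Each group held 5 libraries, numbered 1 to 5 in both groups. Every myeloid library therefore came from a leukaemic mouse, and no healthy marrow or normal immature cells were among the samples. The fusion's promoter, the number of clones injected and the age of the mice are not stated in the labels. The labels do not say that the libraries came from separate mice, so that p-values measure the spread between these libraries.

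Myeloid cells mature along a path set by a small number of DNA-binding proteins. C/EBPα and PU.1 commit progenitors to the granulocyte and monocyte lineages, and Myb keeps progenitors immature and dividing. Gfi1 is a repressor that favours the neutrophil branch, whereas Klf4 favours the monocyte branch. C/EBPε switches on the genes of the late neutrophil granules. Id2 cannot bind DNA and acts by holding E proteins away from their sites.

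Recovered reads in the table came to 24099551 to 30879584 for a leukaemia library and 24712749 to 32247803 for a myeloid one. Values are given as normalised reads, which are recovered reads divided by the authors' size factor of the library. The labelled identities were visible in marker genes. Hoxa9, a gene of the MLL fusion programme, averaged 3215 ± 329 normalised reads in the leukaemia and 16.0 ± 5.30 in the myeloid group (SD, n = 5 each). Itgam, which encodes the CD11b used for the sort, averaged 12227 ± 1128 in the leukaemia and 97794 ± 13873 in the myeloid group. Myeloid replicates 2 and 4 stood apart from the other myeloid libraries. The summed normalised reads of the 7 dendritic cell markers were 58153, 4743, 40852, 4722 and 37308 in myeloid replicates 1 to 5. Most of these reads came from MHC class II presentation genes. Cd74, H2-Ab1, H2-Aa and H2-Eb1 had myeloid means of 14564, 5079, 4931 and 4078. Siglech, Clec9a and Xcr1 had 193 to 375, 145 to 328 and 6 to 31 over the myeloid libraries. Summed B cell markers (2249, 537, 1184, 483 and 1033) and macrophage markers (3216, 1024, 2608, 1162 and 2349) were also lowest in replicates 2 and 4. Each member was therefore also tested without myeloid replicates 2 and 4. All 9 still passed the threshold there, as did 7843 of the 8079 tested genes, so this pass says little by itself.

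Early factors were mostly higher in leukaemia, and late granulocyte and monocyte factors were lower. Of the 4 early members with a row, Myb, Gfi1 and Cebpa were higher and Spi1 was lower. The 5 late members, Cebpe, Cebpd, Cebpb, Klf4 and Id2, were all lower. All 9 passed the threshold of limma, an adjusted p under 0.05, as did 99.8% of all tested genes (49.1% higher and 50.7% lower), so a pass says little in a table that held few genes without a difference. More can be read from the size of the differences. The log2 difference was at least 1 in either direction for 7 of the 9 members, 2 of them higher and 5 lower, against 27.7% of all tested genes (9.52% higher and 18.1% lower). The early members had a median log2 difference of 1.10, the late members one of -1.61 and all tested genes one of -0.16. The rule did not say which genes are early or late, and they were assigned with earlier results known. These medians are therefore a description, and the early members ran from -1.22 (Spi1) to 3.04 (Myb). Leukaemia and myeloid values were without overlap for 8 of the 9 members, 3 of them higher and 5 lower, against 86.8% of all tested genes (42.4% higher and 44.3% lower). Leukaemia and immaturity cannot be told apart in this comparison. In such bulk samples, fewer cells of a type and less RNA per cell cannot be told apart either.

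**Figure D1:**
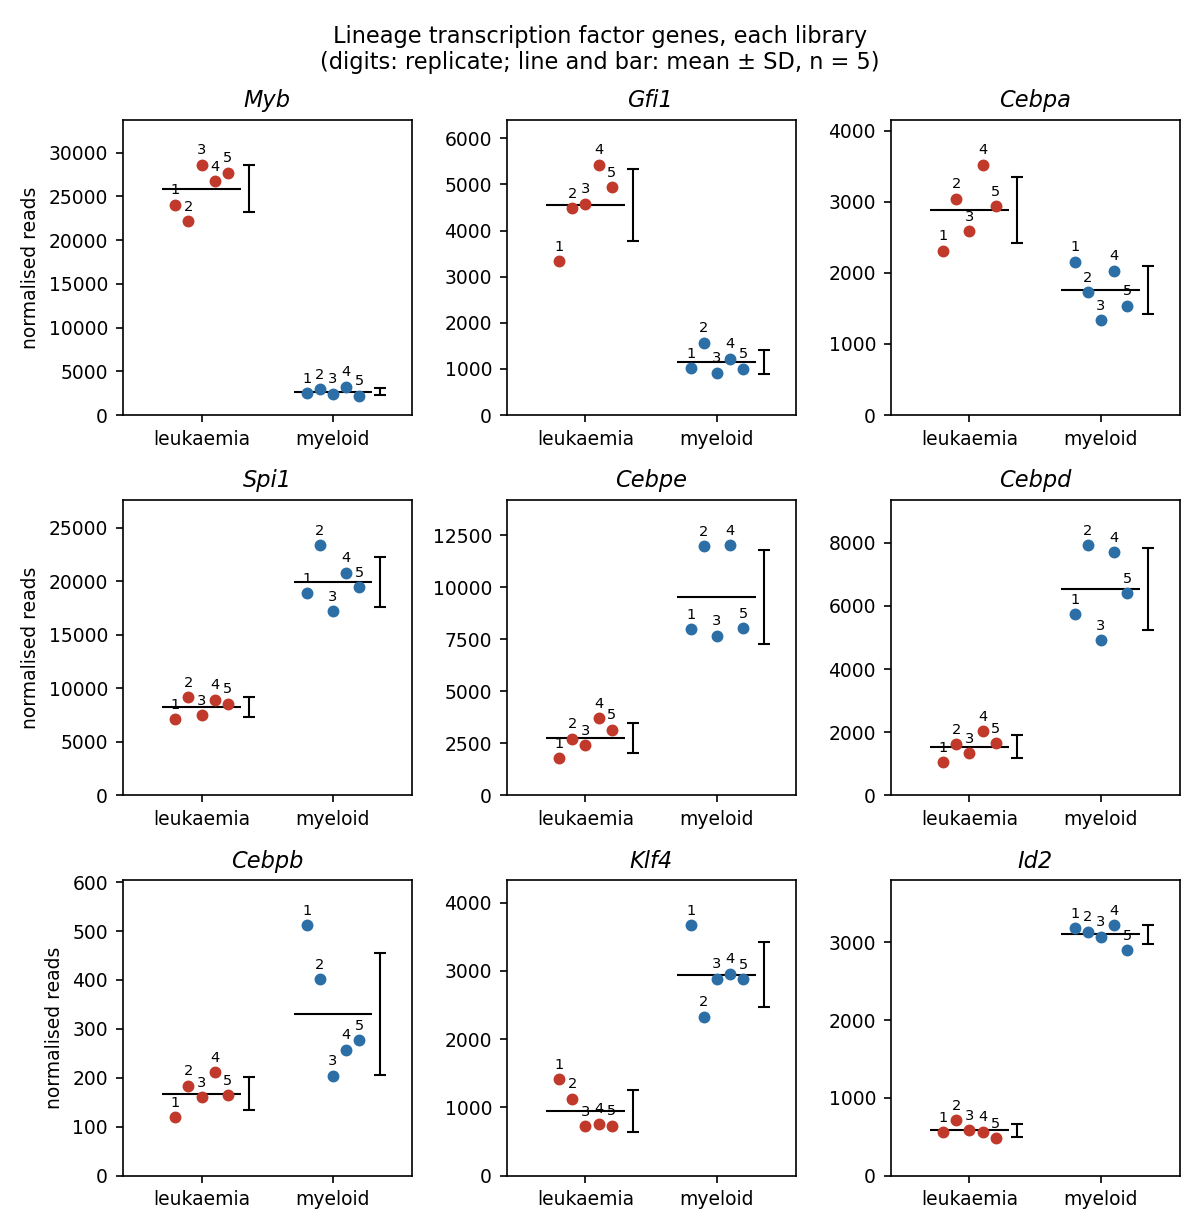
Normalised reads (y axis, from 0, linear) of the 9 lineage factor genes in leukaemia and myeloid libraries, with digits for the replicate, a line for the mean and a bar for the SD (n = 5 each). Myb, Gfi1 and Cebpa lie higher in leukaemia, Spi1, Cebpe, Cebpd, Klf4 and Id2 lie lower, and Cebpb is the gene whose groups overlap.

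Myb, the factor of dividing progenitors, had the largest difference of the members. It had 24050, 22124, 28614, 26722 and 27704 normalised reads in leukaemia replicates 1 to 5, and 2521, 2928, 2446, 3245 and 2194 in myeloid replicates 1 to 5. The lowest leukaemia library lay well above the highest myeloid one. The 9.69-fold higher mean gave a limma log2 difference of 3.04 (SE 0.10, 95% interval 2.83 to 3.25, adjusted p = 1.66e-11). Of all tested genes, 1.56% differed by more in either direction.

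Gfi1, a zinc finger repressor that neutrophil formation needs, was 3.98-fold higher in leukaemia. Its normalised reads were 3331, 4482, 4585, 5427 and 4934 in leukaemia replicates 1 to 5, and 1013, 1565, 920, 1217 and 1006 in myeloid replicates 1 to 5. The groups were far apart, and leukaemia replicate 1 was the lowest of its group (log2 difference 1.61, SE 0.12, limma adjusted p = 3.71e-08).

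Cebpa, the commitment factor of the C/EBP family, was 1.64-fold higher in leukaemia. It had 2313, 3043, 2589, 3521 and 2940 normalised reads in leukaemia replicates 1 to 5, against 2156, 1732, 1331, 2032 and 1537 in myeloid replicates 1 to 5. The groups did not overlap, but leukaemia replicate 1 and myeloid replicate 1 were close (log2 difference 0.58, SE 0.11, limma adjusted p = 0.000284). The difference was moderate, since 54.5% of all tested genes differed by more.

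Spi1, which encodes PU.1, was the early member that went the other way. It had 7136, 9184, 7468, 8933 and 8587 normalised reads in leukaemia replicates 1 to 5, and 18913, 23405, 17191, 20814 and 19440 in myeloid replicates 1 to 5. The mean was 2.42-fold lower in leukaemia with no overlap (log2 difference -1.22, SE 0.09, limma adjusted p = 4.83e-08). PU.1 acts in progenitors and is also kept at high levels in mature neutrophils and monocytes, so the label early covers its role only in part.

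Cebpe, the factor of late granule genes, was 3.47-fold lower in leukaemia. It had 1795, 2715, 2399, 3699 and 3155 normalised reads in leukaemia replicates 1 to 5, against 7991, 11980, 7664, 12035 and 8029 in myeloid replicates 1 to 5. Myeloid replicates 2 and 4 were the highest and the 3 other myeloid libraries lay close together, far above the highest leukaemia library. The log2 difference was -1.61 (SE 0.17, 95% interval -1.98 to -1.25, limma adjusted p = 9.2e-07), and it was -1.39 without myeloid replicates 2 and 4.

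Cebpd, a C/EBP factor of late granulocytes and of inflammation, was 4.24-fold lower in leukaemia. Its normalised reads were 1050, 1626, 1328, 2039 and 1658 in leukaemia replicates 1 to 5, and 5728, 7929, 4911, 7697 and 6410 in myeloid replicates 1 to 5. The groups were well separated, with myeloid replicates 2 and 4 again the highest (log2 difference -1.77, SE 0.14, limma adjusted p = 6.76e-08). The value was -1.60 without those 2 libraries.

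Cebpb, the C/EBP factor of emergency granulocyte production, had few reads. Its difference was the smallest of the members on the deposited log2 scale, while by fold of means that of Cebpa was smaller. It had 119, 184, 160, 211 and 164 normalised reads in leukaemia replicates 1 to 5, and 512, 402, 204, 257 and 277 in myeloid replicates 1 to 5. Leukaemia replicate 4 exceeded myeloid replicate 3, so the groups overlapped. The mean was 1.97-fold lower in leukaemia (log2 difference -0.38, SE 0.11, limma adjusted p = 0.00363). Fitted with voom on recovered reads, which compresses low genes less, the log2 fold was -0.94 with the authors' size factors (adjusted p = 0.0029). With the same fit scaled to the table's total it was -0.29 and the call was lost (adjusted p = 0.289). Results given below as scaled to the table's total come from that voom fit.

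Reads of some members can come from a neighbouring gene, because the strand setting of the counting is not given in the sources used here. In the GENCODE M21 annotation, exons of Cebpb overlap those of Tmem189 on the opposite strand, and exons of Cebpd overlap those of Spidr. Tmem189 was itself 2.53-fold lower in leukaemia, with 1042 ± 56.9 normalised reads in the leukaemia and 2641 ± 179 in the myeloid group (SD, n = 5 each). Spidr was 1.31-fold lower. Their part in the values of Cebpb and Cebpd was not tested. Cebpa, Gfi1 and Myb each overlap 1 non-coding gene of the opposite strand, and Cebpe, Spi1, Id2 and Klf4 overlap no annotated gene.

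Klf4, the zinc finger factor of monocytes, was 3.09-fold lower in leukaemia. It had 1413, 1130, 722, 762 and 732 normalised reads in leukaemia replicates 1 to 5, against 3668, 2331, 2887, 2961 and 2878 in myeloid replicates 1 to 5. Replicate 1 was the highest library of both groups, and the groups did not overlap (log2 difference -1.26, SE 0.13, limma adjusted p = 1.06e-06). Within leukaemia the highest library had 1.96 times the reads of the lowest.

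Id2, the inhibitor of E proteins, was 5.34-fold lower in leukaemia. It had 556, 714, 585, 565 and 484 normalised reads in leukaemia replicates 1 to 5, and 3183, 3138, 3075, 3219 and 2902 in myeloid replicates 1 to 5. The myeloid libraries were nearly equal, with a coefficient of variation of 4.02%, which was the lowest of any member in either group. The log2 difference was -1.76 (SE 0.06, 95% interval -1.89 to -1.63, limma adjusted p = 3.15e-11) and -1.74 without myeloid replicates 2 and 4. Id2 is also used by dendritic and natural killer cells, whose markers were present among the myeloid libraries. The 7 dendritic cell markers summed to between 685 and 1967 normalised reads in leukaemia, and to between 4722 and 58153 in myeloid cells. Most of the myeloid sum came from the MHC class II presentation genes named above. The 9 natural killer and T cell markers summed to between 2920 and 5878 in leukaemia, where Nkg7 made up most of them, and to between 2368 and 6000 in myeloid cells. Of the natural killer markers, Gzma had 1868, 1330, 851, 763 and 675 normalised reads in myeloid replicates 1 to 5. Id2 varied 1.11-fold over the myeloid libraries while both sums varied by more. The part of these cells in the Id2 level was not tested.

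**Figure D2:**
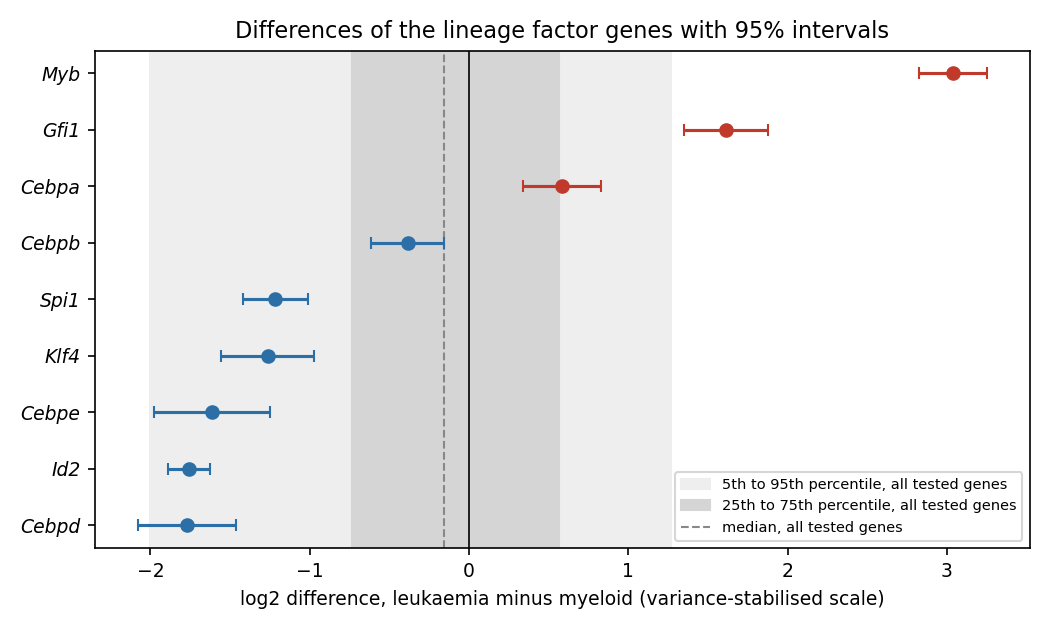
Log2 difference of each lineage factor gene, leukaemia minus myeloid (x axis, variance-stabilised scale), with its 95% interval from limma, over grey bands for the percentiles of all 8079 tested genes. Myb (3.04) and Gfi1 (1.61) lie above the 95th percentile of all genes (1.27), while Cebpa (0.58) lies at the 75th percentile (0.57) and Cebpb (-0.38) within the inner band.

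Promoters are shown for the members with the largest differences that had an entry in the RefSeq promoter table of build GRCm38.p6. The table held 7 of the 10 genes. Gfi1 has been reported as a repressor of Id2 in mouse cells, and whether it acts on Id2 in these cells was not tested. Each run is the 250 bases before the annotated start, 5′ to 3′ on the gene's own strand. Capitals mark CANNTG (the E box that E proteins bind), TTGCNNAA (a C/EBP motif) and AATC (the core of the Gfi1 motif), read on both strands.
Myb (chr10:21160985-21161234, minus strand): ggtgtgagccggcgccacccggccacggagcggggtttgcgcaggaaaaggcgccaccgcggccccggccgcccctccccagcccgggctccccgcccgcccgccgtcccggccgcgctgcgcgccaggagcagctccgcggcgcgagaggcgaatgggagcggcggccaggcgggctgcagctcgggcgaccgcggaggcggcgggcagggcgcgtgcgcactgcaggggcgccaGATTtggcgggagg
Gfi1, first listed start (chr5:107725806-107726055, minus strand): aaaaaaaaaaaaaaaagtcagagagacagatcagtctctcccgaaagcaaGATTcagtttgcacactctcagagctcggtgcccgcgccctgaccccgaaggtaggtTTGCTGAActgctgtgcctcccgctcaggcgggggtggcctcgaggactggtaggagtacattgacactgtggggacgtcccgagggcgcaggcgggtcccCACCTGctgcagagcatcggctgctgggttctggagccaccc
Id2 (chr12:25096093-25096342, minus strand): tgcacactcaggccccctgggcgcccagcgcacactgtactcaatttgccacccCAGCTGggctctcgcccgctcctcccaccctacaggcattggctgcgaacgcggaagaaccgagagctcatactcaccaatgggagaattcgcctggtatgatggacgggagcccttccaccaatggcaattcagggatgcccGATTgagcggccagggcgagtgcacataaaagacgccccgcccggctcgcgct

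In the Id2 window an E box began at base -196 and the AATC core lay on the opposite strand from base -53. The Gfi1 window shown held a TTGCNNAA match from base -143, an E box from base -42 and, on the opposite strand, an AATC core from base -200. Among the windows of the 7 genes this was the one with that C/EBP motif, which occurs in 9.56% of all 32851 promoter windows of this length. The other listed start of Gfi1, not shown, had an E box from base -156 and neither TTGCNNAA nor AATC. The Myb window held an AATC core on the opposite strand from base -14 and no E box. E boxes occurred in 66.2% and AATC in 69.0% of all windows. Klf4 had 2 E boxes in its window, and the windows of Cebpa and Cebpb held none of the 3 motifs. Of the other motifs searched, AACNG (Myb) was found in 74.2% of all windows, and TGTGGT (Runx, 14.0%) and GAGGAA (PU.1, 23.3%) were absent from the 3 windows shown. These matches describe letters and not bound sites.

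Levels of different genes were compared per length, as normalised reads per kb of annotated exon. The length joined all annotated exons of a gene, at 8933 bases for Myb, 3746 for Cebpd and 1241 for Cebpe. It can exceed the transcript made in these cells, so the order of genes depends on it. In leukaemia the order ran Spi1, Myb, Cebpe, Gfi1, Cebpa, Cebpd, Klf4, Id2 and Cebpb. Spi1 averaged 3065 ± 337 and Myb 2893 ± 301 per kb (SD, n = 5 each), and their ranges overlapped. Cebpe followed with 2218 ± 584, Gfi1 with 1428 ± 243 and Cebpa with 1093 ± 175 per kb. The libraries of neighbours in this order overlapped except between Cebpa and Cebpd (411 ± 99.5 per kb), and between Id2 (238 ± 34.3 per kb) and Cebpb (112 ± 22.6 per kb). By this length Cebpe was among the 3 highest members per kb in leukaemia, although it was lower there than in myeloid cells.

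In myeloid cells Cebpe (7687 ± 1819 per kb) and Spi1 (7403 ± 863 per kb) were highest, with overlapping ranges. A clear step separated them from Cebpd (1744 ± 343 per kb), Id2 (1273 ± 51.2 per kb) and Klf4 (966 ± 156 per kb), which overlapped their neighbours. Cebpa had 667 ± 129 per kb, and its range lay above that of Gfi1 (359 ± 81.4 per kb). Gfi1, Myb (299 ± 46.7 per kb) and Cebpb (220 ± 82.9 per kb) came last and overlapped in turn. Myb stood at place 2 in leukaemia and at place 8 in myeloid cells, while Cebpb was the lowest in both.

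Ratios between members within a library do not depend on how libraries are scaled. They are given as a description, without a test, because the pairs were chosen with the values known. The log2 ratio of Cebpe to Cebpa per kb was 0.72, 0.92, 0.98, 1.16 and 1.19 in leukaemia replicates 1 to 5, and 2.98, 3.88, 3.61, 3.65 and 3.47 in myeloid replicates 1 to 5. The balance of late to early C/EBP factor was therefore 5.75-fold lower in leukaemia. Cebpd to Cebpa averaged -1.43 ± 0.14 in the leukaemia and 1.39 ± 0.30 in the myeloid group (SD, n = 5 each). By these exon lengths Cebpd lay below Cebpa in leukaemia and above it in myeloid cells. Which gene of a pair lies higher depends on the lengths used, whereas the difference between groups does not. Cebpb to Cebpa had -3.30 ± 0.11 in the leukaemia and -1.66 ± 0.39 in the myeloid group. The normalised reads of Cebpb overlapped between the groups, whereas these ratios did not.

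Ratios to Gfi1 differed by more. Cebpe to Gfi1 averaged a log2 ratio of 0.61 ± 0.16 in the leukaemia and 4.42 ± 0.15 in the myeloid group (SD, n = 5 each). Id2 to Gfi1 averaged -2.58 ± 0.35 in the leukaemia and 1.85 ± 0.29 in the myeloid group, a 21.5-fold lower ratio. Klf4 to Gfi1 spread most within a group, from -2.77 to -1.17 in leukaemia and from 0.64 to 1.92 in myeloid cells. Id2 to Myb differed most, with -3.61 ± 0.33 in the leukaemia and 2.11 ± 0.18 in the myeloid group. Spi1 to Cebpa ran from 1.31 to 1.59 in leukaemia and from 3.10 to 3.72 in myeloid cells. For each of these 8 pairs every leukaemia library lay below every myeloid library. For all pairs but Cebpb to Cebpa this follows from the members' own values. There the first gene was lower and the second higher in leukaemia, each without overlap.

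**Figure D3:**
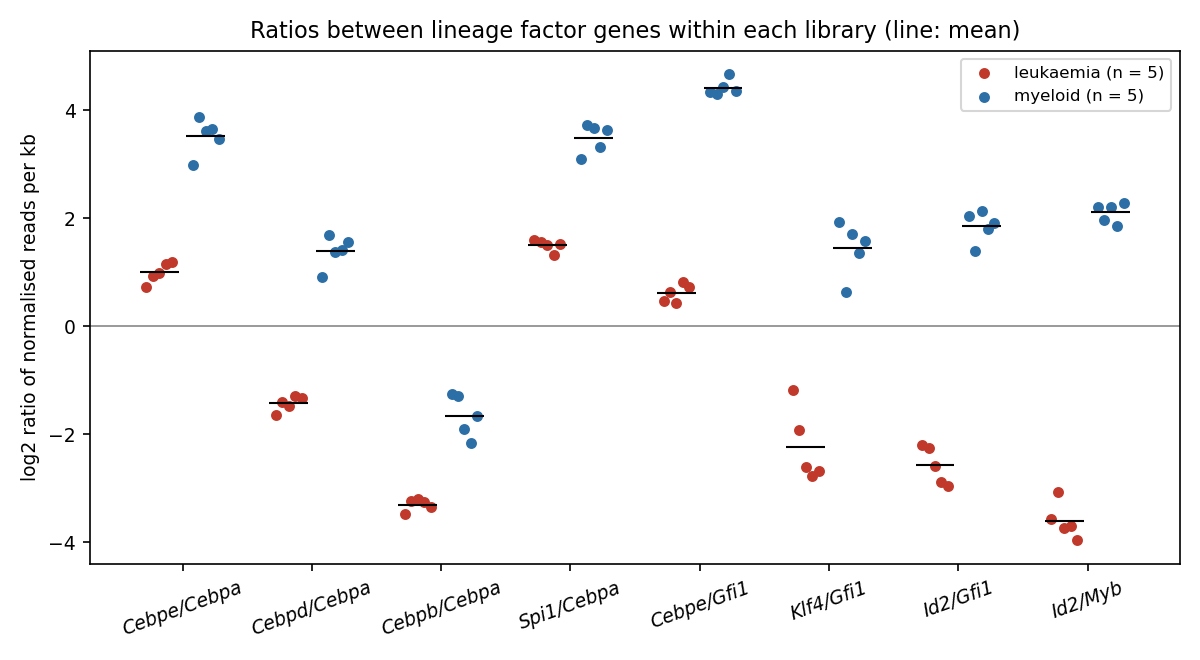
Log2 ratio of normalised reads per kb (y axis) between pairs of lineage factor genes within each library, leukaemia beside myeloid (points: 5 libraries each, line: mean). Ratios of a late to an early factor lie lower in every leukaemia library than in any myeloid library, with mean differences of -2.52 for Cebpe to Cebpa and -5.71 for Id2 to Myb. For all pairs but Cebpb to Cebpa the separation follows from the members' own values, which did not overlap. Spi1 to Cebpa is a pair of early factors.

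Members also varied together within each group. Leukaemia replicate 1 was the lowest library of its group for 6 of the 9 members, namely Cebpa, Cebpb, Cebpd, Cebpe, Spi1 and Gfi1, and the highest for Klf4. Leukaemia replicate 4 was the highest for 5 members. In the myeloid group replicate 3 was the lowest for the same 6 members, and replicates 2 and 4 were the highest pair for Cebpd, Cebpe, Spi1, Gfi1 and Myb. Klf4 did not share this order, with its lowest myeloid value in replicate 2 and its second highest in replicate 4. Summed neutrophil markers were highest in myeloid replicates 2 and 4, with 1331330, 2332330, 1419040, 1768850 and 1445120 normalised reads in myeloid replicates 1 to 5. Summed monocyte markers ran the opposite way, with 109668, 75095, 123568, 77380 and 113112. Leukaemia replicate 1, where Klf4 was highest, also had the highest monocyte marker sum of its group at 46558, against 27829 in leukaemia replicate 4. The part of differing cell mixtures in these patterns was not tested.

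**Figure D4:**
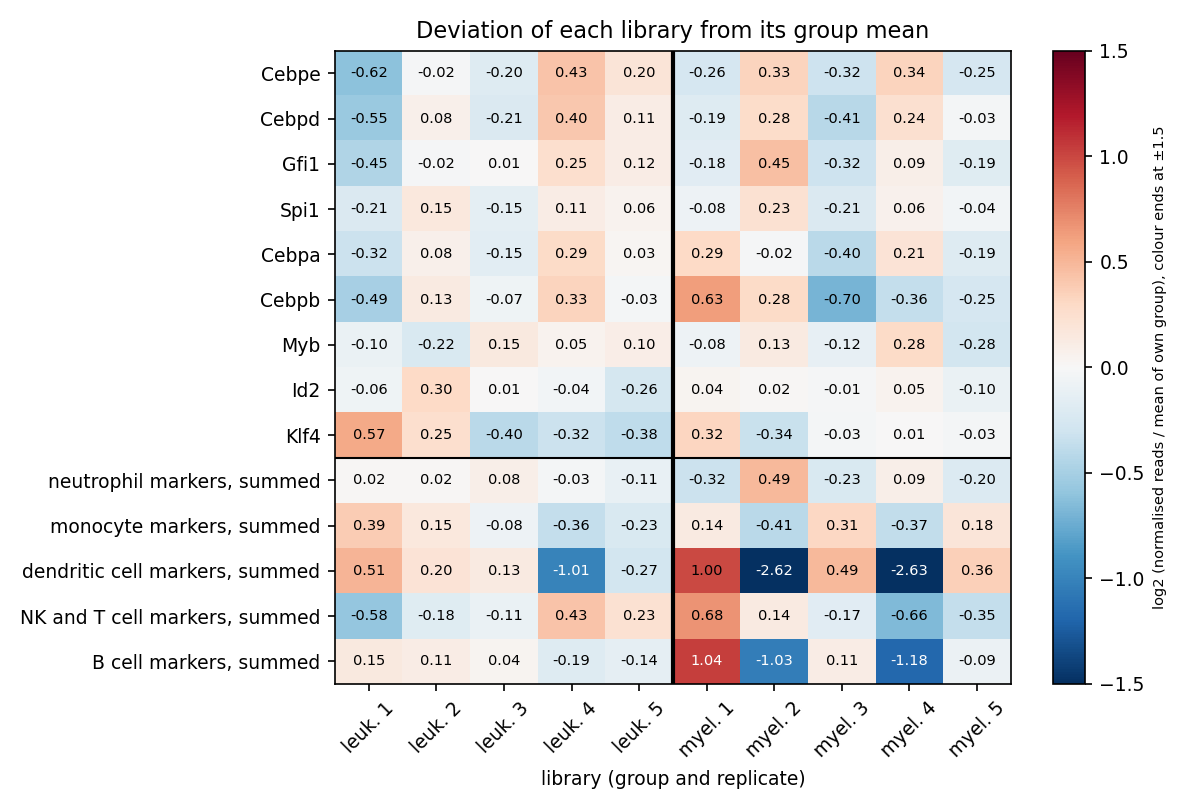
Deviation of each library from the mean of its own group (log2 of normalised reads over the group mean, colour and printed value) for the 9 lineage factor genes and for summed marker lists of 5 other cell classes, leukaemia libraries left of myeloid ones. Cebpe, at -0.62 in leukaemia replicate 1 and 0.34 in myeloid replicate 4, deviates alongside Cebpd, Gfi1 and Spi1, while Klf4, at 0.57 in leukaemia replicate 1 and 0.01 in myeloid replicate 4, does not follow them.

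The likeness of patterns was measured as the Pearson correlation of values centred on their group mean, over 10 libraries in 2 groups, and is a description. Cebpe was most like Tsc22d4 (0.99), C1qtnf12 (0.99) and Mogat2 (0.98). Among the other members it was most like Cebpd (0.95) and Gfi1 (0.93) and least like Klf4 (-0.65). Gfi1 and Klf4 were the most opposed pair of members (-0.78). Id2 followed no gene as closely, its nearest being Cfap298 (0.85), Tmco4 (0.85) and Fcf1 (0.83), and its likeness to the other members lay between -0.16 and 0.34. Klf4 was most like Psap (0.96), Mpeg1 (0.95) and Il6ra (0.95), and Myb was most like Nedd4 (0.98), Tcf12 (0.98) and Mafg (0.96). Since these values share the depth and cell mixture of a library, a high likeness need not involve the gene itself.

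Few genes that act with the C/EBP factors could be tested. Of 12 listed partners and regulators 7 had a row and 4 passed the filter. All 4 were lower in leukaemia, against 50.7% of all tested genes (median log2 difference -1.18, against -0.16 for all tested genes). Trib1, an adaptor that targets C/EBPα for degradation, had 260, 33, 193, 46 and 107 normalised reads in leukaemia replicates 1 to 5, and 12960, 4143, 10558, 2681 and 10141 in myeloid replicates 1 to 5. Its leukaemia mean of 128 normalised reads lay below the filter of about 145, so it passed through its myeloid values. It was 63.4-fold lower in leukaemia (log2 difference -3.82, SE 0.35, limma adjusted p = 2.33e-07), and replicates 2 and 4 were the low libraries of both groups. In the myeloid group they are the libraries with low sums of dendritic cell, macrophage and B cell markers. In leukaemia replicates 1 to 5 the dendritic cell marker sums were 1967, 1582, 1510, 685 and 1139, so replicate 2 was not low. Fos was also lowest in replicates 2 and 4 of both groups. The part of cell mixture in the Trib1 values was not tested. Nfil3, a basic leucine zipper repressor, was 4.02-fold lower. Cebpg, a partner without an activation domain, was lower with the authors' size factors (log2 difference -0.34) and had the opposite sign under scaling to the table's total.

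The tested E protein genes, Tcf3 and Tcf12, were higher in leukaemia, while Id2 was lower. In a list of 10 E protein, Id and partner genes 5 were tested, of which 4 were higher and 1 was lower (median 0.60). Of all tested genes, 49.1% were higher and 50.7% lower. With no filter, 4 genes of the list were higher and 3 lower. Tcf3, which encodes E2A, had 3259 ± 261 normalised reads in the leukaemia and 1879 ± 234 in the myeloid group (SD, n = 5 each), a 1.73-fold higher mean. Tcf12, another E protein gene, had a log2 difference of 0.60. Lmo2, a bridging protein of E protein complexes, was 4.03-fold higher, and Lyl1, another listed partner gene, was 1.52-fold higher. Id1 was the lower member (log2 difference -0.45, limma adjusted p = 0.00127), with overlapping groups, and it did not pass under scaling to the table's total. Id3 lay below the filter, with 0 to 7 normalised reads in leukaemia and 14 to 61 in myeloid libraries. Tal1 lay below it as well, with 3 to 16 normalised reads in leukaemia and 110 to 260 in myeloid libraries.

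Of 9 tested genes for core binding factors and Ets proteins, 4 were higher and 5 lower (median -0.26). Quantile normalisation turned this median to 0.31 and scaling to the table's total turned it to 0.35. Runx3, a relative of Runx1, had 2142 ± 160 normalised reads in leukaemia, against 810 ± 67.6 in myeloid cells (SD, n = 5 each), a 2.64-fold higher mean. Elf1 was 1.66-fold higher. Ets1 was 2.93-fold and Ets2 2.24-fold lower.

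Of the 7 tested genes for partners of Gfi1 and related repressors, 4 were higher and 3 lower in leukaemia (median 0.11). Of all tested genes, 49.1% were higher and 50.7% lower. The groups overlapped for 2 of the 7, and without myeloid replicates 2 and 4 the calls were 3 higher and 3 lower. Kdm1a, a Gfi1 partner gene, hardly differed (log2 difference 0.11, limma adjusted p = 0.0293). The deacetylase genes Hdac2 (2.27-fold) and Hdac3 (1.28-fold) were higher. Bcl6, a repressor of mature neutrophils and of other lineages, was 14.7-fold lower (457 ± 70.5 normalised reads in leukaemia, 6733 ± 515 in myeloid cells, SD, n = 5 each). Zeb1 was 33.2-fold lower and passed the filter through its myeloid values, with a leukaemia mean of 47.2 normalised reads. All 11 tested genes listed as factors of monocytes, macrophages and dendritic cells were lower (median -1.48), against 50.7% of all tested genes. The groups overlapped for 3 of the 11. The list also held Fos, Junb and Nr4a1, which are not particular to those cells and were lowest in myeloid replicates 2 and 4. Among them Klf6 was 12.7-fold lower. Klf2, of the same family as Klf4, had 613, 503, 415, 336 and 423 normalised reads in leukaemia replicates 1 to 5, and 10571, 4279, 6360, 3887 and 7311 in myeloid replicates 1 to 5. Its lowest myeloid libraries were again replicates 2 and 4. Scaled to the table's total, 9 of the 11 were still called lower. Of 14 factors of other lineages 3 were tested. Gata2 was 2.13-fold higher, and Nfe2 (2.44-fold) and Hhex (2.19-fold) were lower.

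Neutrophil genes differed by stage. The 10 late neutrophil genes listed for their dependence on C/EBPε were all lower in leukaemia (median -5.00). Most encode granule proteins, but Ly6g encodes a surface protein and Itgb2l an integrin subunit. Mmp8 was 164-fold and Mmp9 138-fold lower. Of 8 genes of the promyelocyte stage 6 were higher and 2 lower (median 2.26). Ctsg (12.8-fold) and Elane (11.5-fold) were the highest, and Ctsc (3.16-fold) and Igsf6 (2.19-fold) were lower. The Igsf6 protein is a membrane receptor and not a granule protein. Both lists were known to differ in this way from earlier results of these data and are no independent evidence of a direction.

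Of the 9 growth factor receptor genes, several of which C/EBPα and PU.1 activate, 1 was higher and 8 were lower in leukaemia (median -1.12). Of all tested genes, 49.1% were higher and 50.7% lower. The groups overlapped for 2 of the 9 receptor genes. Csf3r, the receptor of granulocyte colony-stimulating factor, had 4994, 4810, 5495, 5973 and 5993 normalised reads in leukaemia replicates 1 to 5, and 52512, 72369, 53861, 72021 and 56461 in myeloid replicates 1 to 5. It was 11.3-fold lower without overlap. Il6ra was 2.93-fold lower, and Kit, the stem cell factor receptor, was 3.38-fold higher. Scaled to the table's total, 6 receptor genes were called lower and 1 higher.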

How the data were processed

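RNA was sequenced from 5 leukaemia and 5 myeloid samples. The library kit was NEBNext Ultra RNA and RNA was taken up in TRIzol, per the labels' protocols. For the cells, the labels describe flow sorting of both populations, whereas the series design text describes magnetic selection of the myeloid cells. The cell type field calls all samples leukaemia, so groups were taken from the titles. The authors deposited 1 table of log2-scale variance-stabilised values. HISAT2 (2.0.4 and 2.2.1) and DESeq2 are named in the submitters' processing notes, and the genome build, annotation and counter are not given in the sources used here.

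The lowest value, 8.1823, was taken as 0 reads and the stabilising function was inverted. Between 0 and 300 reads, 100.0% of values came out whole within 0.1 read. Even values exceeded odd ones at low reads (1466 of 4, 6, 8 or 10 against 1123 of 3, 5, 7 or 9), so a read can be part of a counted pair. The self-test of this step and of the fit used simulated data.

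Deposited values were fitted with limma (3.58.1, R 4.3.3) as the difference of leukaemia from myeloid means, with a trended variance prior, two-sided tests and Benjamini-Hochberg adjustment over 8079 genes. Genes were kept where the mean lay over 1 unit above the lowest value, about 145 normalised reads. Folds are ratios of mean normalised reads. Log2 differences understate the change of low genes. The table was ordered by the difference (the Spearman rho of row number with p was 0.98, across genes), and its highest unadjusted p was 0.243, so adjusted p-values are not error rates over the transcriptome. Counting each of 55450 annotated genes as a test gave the 9 members adjusted p-values of at most 0.0249. Exon lengths came from GENCODE M21.

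Members and lists were chosen with earlier results of these data known. Named were all members, at most 2 higher and 2 lower passing genes without overlap per list, and, for at most 4 members, the 3 genes of most similar pattern. A few others (Hoxa9, Itgam, Tmem189, Spidr, Nkg7, Gzma, Cebpg, Tcf12, Id1, Id3, Eomes, Gata3, Pax5, Ly6g, Itgb2l and Fos) were chosen after their values were seen. So were Lyl1, Tal1, Cd74, H2-Ab1, H2-Aa, H2-Eb1, Siglech, Clec9a, Xcr1, Junb, Nr4a1 and Kdm1a. Alternatives covered filters, scalings, the prior, a replicate block and left-out libraries. The fits without replicates 2 and 4, and the count of annotated genes, were added after the data were seen.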

Additional observations from a re-analysis of the deposited data

Results flagged for a closer look

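Among 70 groups of 5 libraries checked for the members and the named list genes, 1 value stood apart. Hhex, a homeobox factor of progenitors and B cells, had its lowest leukaemia value in replicate 3, at 11.11 on the deposited log2 scale, or 1665 normalised reads. The gap to the next library was 0.71 of the range of the group. By chance about 1 in 20 such groups would hold such a value.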

How the results depend on the processing

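The 9 members kept their direction under each alternative, and 178 of 179 member values also kept their call. The exception was Cebpb under voom when scaled to the table's total (log2 fold -0.29, adjusted p = 0.289, against -0.94 under voom with the authors' size factors). With 1 library left out, adjusted p-values of Cebpb lay between 0.000994 and 0.0108. For the 26 list genes named by rule, all 518 values kept direction and call. Of the list genes named otherwise, Cebpg changed sign and Id1 lost its call under that scaling. Quantile normalisation raised the median of all genes by 0.25. The median was 0.43 under voom scaled to the total, -0.21 under voom with the authors' size factors and -0.16 in the reported fit. Under voom scaled to the total, 4621 genes were higher and 2232 lower (67.4% higher, against 49.2% with the authors' size factors). A stricter filter tested fewer genes and left 2415 higher. Relative to the median of all genes, Cebpe lay at -1.60 under voom scaled to the total and at -1.59 under voom with the authors' size factors, against -1.46 in the reported fit. With no filter, 7 C/EBP partner genes and 10 other lineage factors passed, since more genes were tested. Taken as differences of deposited values, the ratio differences were smaller in size, at -2.35 (Cebpd to Cebpa), -0.97 (Cebpb to Cebpa), -3.22 (Cebpe to Gfi1), -3.37 (Id2 to Gfi1), -2.87 (Klf4 to Gfi1) and -4.80 (Id2 to Myb), as that scale compresses low reads.

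A replicate block left 8018 genes and all 9 members passing (adjusted p = 0.00674 for Cebpb). Deviations of same-numbered libraries correlated between -0.022 and 0.316, over 0.1 for 4 of 5 numbers, and 4 of 10 libraries correlated best with their own number. The numbers were not taken as pairs, although Fos and Trib1 had their lowest values in replicates 2 and 4 of both groups. No source used here says whether a number marks a shared mouse.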

Other observations

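Among the listed factors of other lineages, 2 had no read in any leukaemia library. Eomes, a factor of natural killer and T cells, had 0 reads in all 5 leukaemia libraries, and 500, 249, 204, 159 and 201 normalised reads in myeloid replicates 1 to 5. A count of 0 allows up to 3 reads per library, and this covers counting error only. Gata3, a T cell factor, had 0 reads in leukaemia as well, against 65, 5, 16, 33 and 30 normalised reads in myeloid replicates 1 to 5. Pax5, the B cell factor, had 0 to 32 normalised reads in leukaemia and 48 to 345 in myeloid libraries, with the lowest in myeloid replicates 2 and 4. All 3 lay below the filter and were not tested.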
